A study of Mus musculus with 2 samples.

Results

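Expressed processed pseudogenes of the fetal mouse liver are described here. The members were chosen by their measured level, as genes that GENCODE M21 types as processed_pseudogene and whose TPM (transcript abundance per length, scaled to the same total in each library) was 1 or more in each library. Of 5349 processed pseudogenes measured, 239 met the rule, or 4.47%, out of 43346 mouse genes in all. With the posterior mean TPM that the authors also deposited, 386 would have met the same limit. Their TPM values therefore describe the choice and are given without a test. The samples were 2 libraries of liver from C57BL/6J embryos at day 14, labelled biological replicates 2 and 1, each from a pool of male and female littermates. No treatment, mutant or second tissue was compared. The RNA was polyadenylated, depleted of ribosomal RNA, longer than 200 nucleotides, and read on both ends for 101 bases with the strand kept. Both libraries carry the same donor entry and nothing states that the pools came from different litters, so the spread between them may be partly technical.

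A processed pseudogene arises when a messenger RNA is copied back into DNA and inserted elsewhere in the genome, usually without introns and without the promoter of its parent gene. Genes that are strongly transcribed in the germ line, above all those for ribosomal proteins and glycolytic enzymes, have left many such copies. A young copy is nearly identical to its parent's messenger RNA, and a read from a stretch that is the same in both cannot be placed by its sequence alone. Levels of such copies are therefore uncertain wherever they share long stretches with another gene.

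Mouse genes held 149348514 expected counts in replicate 2 and 97174777 in replicate 1. The 6 hepatocyte markers ran between 835 and 10440.5 TPM in replicate 2 and between 737 and 9112 TPM in replicate 1, and the 7 erythroid markers summed to 440119.9 and 487709.9 TPM in replicates 2 and 1, so the defining markers of the labelled tissue were present in both. The 4 neural markers lay at or under 0.840 TPM in replicate 2, and in replicate 1 at or under 0.910 TPM. The 7 skeletal muscle markers summed to 3.62 TPM in replicate 2, against 65.5 TPM in replicate 1. In bulk tissue, fewer cells of a type and less RNA per cell cannot be told apart.

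Summed over members, the level was 6624 TPM in replicate 2, against 5865 TPM in replicate 1, which is 0.662% and 0.586% of all TPM. They accounted for 95.7% of the TPM of all measured processed pseudogenes in replicate 2 and 96.4% in replicate 1. The level was concentrated, since the 10 highest members took 50.8% of the members' TPM in replicate 2 and 52.9% in replicate 1. The median member stood at 5.54 TPM and 356 counts in replicate 2, against 4.15 TPM and 198 counts in replicate 1. In both libraries 81 members reached 10 TPM, and 11 reached 100 TPM. At the other end, 3834 measured processed pseudogenes had 0 counts in both libraries. For counting error alone, a count of 0 allows up to 3 counts. These are 2.01e-06% of the counts in replicate 2 and 3.09e-06% in replicate 1. The limit does not cover reads that were assigned to a similar gene.

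The sequences below show how little separates the high members from their parents, with capitals marking bases that differ from the parent. The highest member and the member that exceeded its parent most were identical to the parent over the whole aligned coding part, 444 bases for Gm7536 against Rpl27a and 387 bases for Ndufb4c against Ndufb4, so 1 sequence stands for each pair. The windows are the first 90 coding bases, at chr3:24333068-24333157 on the plus strand for Gm7536 and chr15:73809807-73809896 on the minus strand for Ndufb4c (GRCm38, GENCODE M21 transcripts).
Gm7536: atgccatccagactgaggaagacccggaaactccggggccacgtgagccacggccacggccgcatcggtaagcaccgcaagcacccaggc
Ndufb4c: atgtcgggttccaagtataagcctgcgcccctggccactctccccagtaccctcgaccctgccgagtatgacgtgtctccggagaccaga

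The copies of Gapdh, the glyceraldehyde-3-phosphate dehydrogenase of glycolysis, carried the largest errors of assignment and are shown for that reason. Over 999 aligned coding bases, Gm10359, Gm12671 and Gm7336 had no difference from Gapdh, and Gm14760 and Gm12070 had 1 each. The window covers coding bases 272 to 361 of Gapdh and holds the difference of Gm12070, at chr11:26786904-26786993 on the plus strand. The other 4 copies read there as Gapdh does.
Gapdh: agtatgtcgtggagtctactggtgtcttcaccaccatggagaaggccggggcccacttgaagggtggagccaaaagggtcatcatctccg
Gm12070: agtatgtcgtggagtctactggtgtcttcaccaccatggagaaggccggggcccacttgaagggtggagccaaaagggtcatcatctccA

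Gm14276 and Gm12696, which had almost no error of assignment in the authors' estimate, had diverged further and are shown for contrast. Gm14276 differed from Rps2, a small ribosomal subunit protein, at 88 of 713 aligned coding bases, and Gm12696 differed from Hnrnpc, an RNA-binding protein of the nucleus, at 17 of 900. The 90-base windows are those without a gap that hold the most differences, coding bases 445 to 534 of Rps2 with Gm14276 at chr2:156994510-156994599, and coding bases 799 to 888 of Hnrnpc with Gm12696 at chr4:97521443-97521532, both copies on the minus strand.
Rps2: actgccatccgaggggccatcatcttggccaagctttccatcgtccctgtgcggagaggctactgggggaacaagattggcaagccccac
Gm14276: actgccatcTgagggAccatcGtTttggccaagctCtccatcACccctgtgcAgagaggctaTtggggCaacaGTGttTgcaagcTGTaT
Hnrnpc: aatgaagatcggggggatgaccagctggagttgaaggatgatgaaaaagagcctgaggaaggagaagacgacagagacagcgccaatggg
Gm12696: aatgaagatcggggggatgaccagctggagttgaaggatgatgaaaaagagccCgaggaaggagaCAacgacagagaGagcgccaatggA

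The highest member was Gm7536, a copy of the large subunit protein gene Rpl27a, with 814 TPM in replicate 2 and 699 TPM in replicate 1, or 756 ± 81.4 TPM (SD, n = 2). It stood above Rpl27a itself, which had 474 and 424 TPM. Rpl27-ps3 on chromosome 18 followed with 605 and 462 TPM, close to its parent Rpl27 at 574 and 599 TPM, so that the order of copy and parent turned between the libraries. Rpl31-ps8 had 414 and 455 TPM, Rpl23a-ps3 had 417 and 384 TPM, and Rpl10a-ps1 had 178 and 192 TPM. Rpl15-ps3 had 155 and 198 TPM, with replicate 1 the higher. Lower copies of large subunit genes among the 20 highest members were Gm4149, from Rpl37a, with 97.6 and 70.7 TPM, Gm10288, from Rpl11, with 77.2 and 62.5 TPM, and Rpl19-ps11 with 71.0 and 60.7 TPM. Among small subunit copies, Gm10443, from Rps28, had 257 and 205 TPM, and Rps6-ps4 had 221 and 201 TPM. Their order rests on effective length, the number of positions at which a fragment can start. It was 9.19 and 10.55 bases for Gm10443, which had 424 and 268 counts, against 21043 and 13308 counts for Rps6-ps4. Gm9843, from Fau, which encodes a ubiquitin-like protein fused to a small subunit protein, had 116 TPM in replicate 2, against 57.6 TPM in replicate 1. The first member from outside the ribosome was Gm15387, a copy of the chromatin protein gene Hmgb1, with 152 TPM in replicate 2 and 154 TPM in replicate 1. Gm8186, from Snrpg, a core protein of the spliceosomal particles, had 149.5 and 150.2 TPM.

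**Figure D1:**
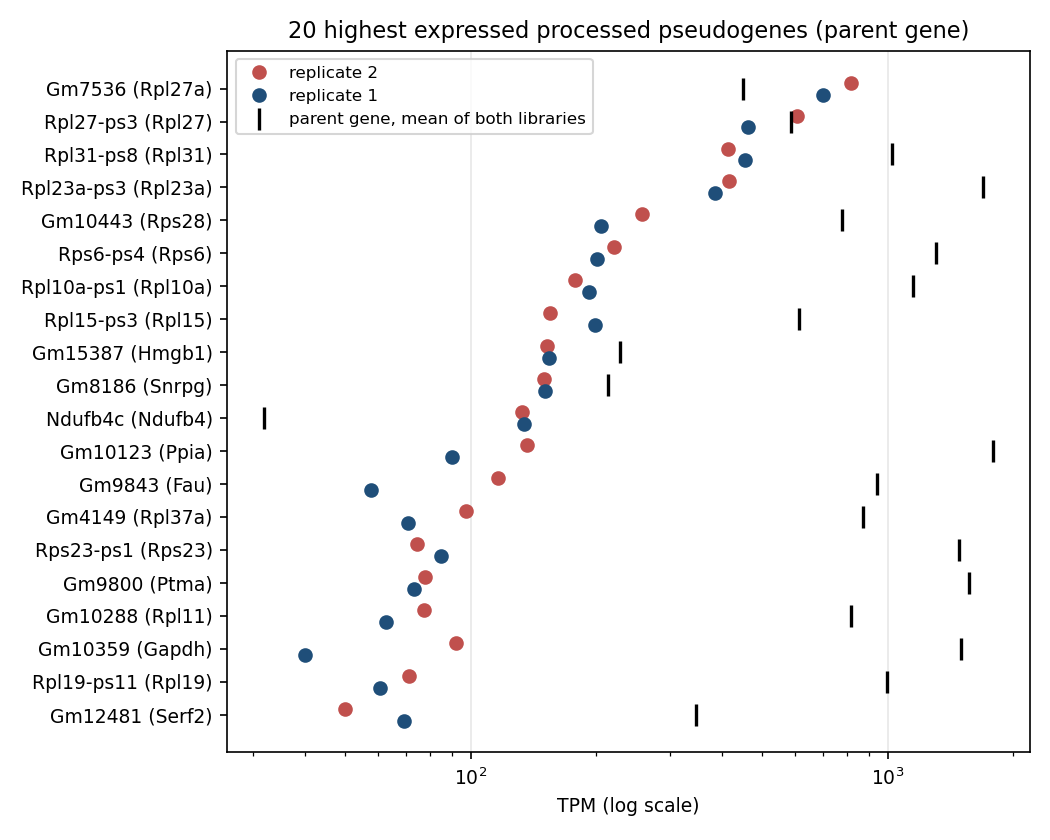
TPM on a log scale (x axis) of the 20 highest members (rows, with the parent gene in brackets), with red points for replicate 2, blue points for replicate 1 and black bars for the parent's mean. Gm7536 and Ndufb4c lie right of their parent's bar in both libraries, and most other members lie well left of it.

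Copies of ribosomal protein genes dominated the level more than the number. They were 81 of the 239 members, or 33.9%, and held 67.2% of the members' TPM in replicate 2 and 66.2% in replicate 1. Among the other processed pseudogenes with a matched parent, 1090 were ribosomal protein copies, or 27.7%. The 48 copies of large subunit genes came from 33 parents and summed to 3444 TPM in replicate 2, against 3090.3 TPM in replicate 1. The 33 copies of small subunit genes came from 21 parents and summed to 1009 and 789 TPM. The lowest of each family were Rpl36-ps2, with 1.37 and 1.10 TPM, and Gm21960, a copy of Rps7, with 1.23 and 1.06 TPM. Of 82 protein-coding ribosomal protein genes, 54 were the parent of at least 1 member, and 80 of the 82 reached 100 TPM in both libraries.

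Translation factors gave 9 members, whose TPM summed to 118 in replicate 2, against 92.6 in replicate 1. Tpt1-ps3, from the translationally controlled tumor protein gene, led with 56.0 and 46.1 TPM, followed by Eif4a-ps4, a copy of the RNA helicase gene Eif4a1, with 20.4 and 14.5 TPM. Gm16580, from the poly(A)-binding protein gene Pabpc1, was the lowest with 1.47 and 1.13 TPM. RNA processing genes gave 13 members, led by Gm8186 and by Snrpert, a copy of Snrpe, with 51.9 and 48.2 TPM, while Gm12966, from the splicing factor gene Srsf5, had 1.88 and 1.47 TPM. High mobility group and chromatin genes gave 17 members. After Gm15387 came Gm9800, from the prothymosin alpha gene Ptma, with 77.5 and 73.2 TPM, and the lowest was another Ptma copy, Gm15538, with 1.08 and 1.00 TPM.

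The 11 copies of respiratory chain and mitochondrial genes held 220 TPM in replicate 2 and 186 TPM in replicate 1. Ndufb4c, whose parent encodes a subunit of respiratory complex I, made most of that with 133 and 134 TPM. Gm12338, from the cytochrome c oxidase gene Cox7c, had 42.5 and 10.2 TPM, from fewer than 10 counts in at least 1 library, and BC002163, from Ndufs5, was the lowest with 1.43 and 1.36 TPM. The 8 copies of glycolysis genes held 202 and 177 TPM, with Gm10359 and Gm12671, both from Gapdh, at the top and Gm12070 at the bottom with 1.08 and 1.42 TPM. Chaperone and folding genes gave 5 members. Gm10123, from the cyclophilin A gene Ppia, had 136 and 90.2 TPM, Gm8355, from the heat shock cognate gene Hspa8, had 33.5 and 38.3 TPM, and Hspd1-ps3 had 2.09 and 1.70 TPM. Ubiquitin and proteasome genes gave 7 members, among them Gm10241, from Sumo2, with 57.4 and 55.5 TPM, and Gm6565, from Ube2v2, with 14.7 and 16.2 TPM. The 7 cytoskeletal members were low. Gm15899, from Actr3, a subunit of the complex that branches actin filaments, had 7.44 and 13.2 TPM, and Gm12715, from the actin gene Actg1, had 11.5 and 8.27 TPM.

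Smaller families were the 3 copies of cell cycle genes, from Cks2, Ran and Pcna, and the 3 copies of iron and redox genes, from Prdx2, Sod1 and Gstp2. A further 73 members had parents outside the lists, 71 different genes, with a sum of 604 TPM in replicate 2, against 562 TPM in replicate 1. The highest of these was Gm12481, from Serf2, with 49.9 and 69.1 TPM. For Gm17084 and Gm37568 no parent was matched. Gm17084 overlapped an exon of Ripk1 and Gm37568 lay inside an intron of Rhoa, each on the same strand as that gene, with 3.12 and 2.44 TPM and with 1.36 and 1.15 TPM.

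**Figure D2:**
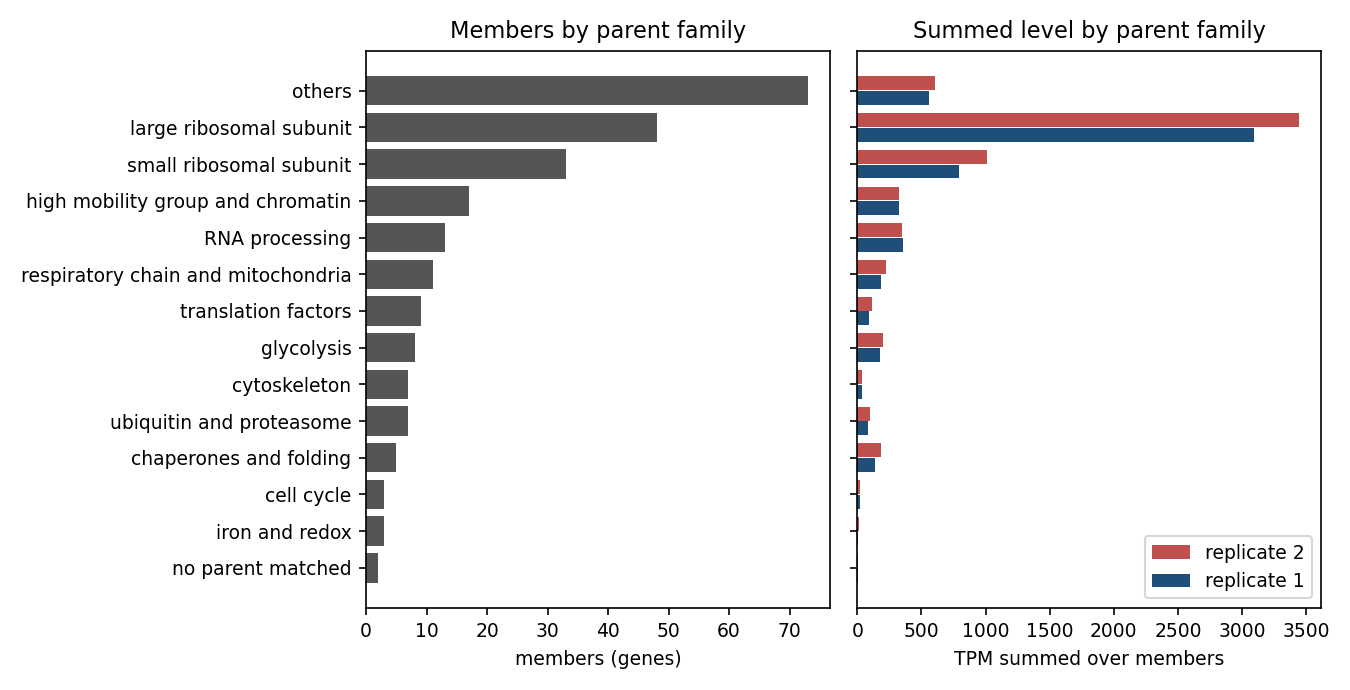
Number of members (left) and TPM summed over members (right, red for replicate 2 and blue for replicate 1) by parent family. The large ribosomal subunit family held 48 members with 3444 and 3090.3 TPM, while the 73 members with parents outside the lists summed to 604 and 562 TPM.

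Most parents had 1 expressed copy. The 237 members with a matched parent came from 193 genes, of which 163 had 1 member, 22 had 2, 4 had 3, 2 had 4 and 2 had 5. The 2 parents with 5 members were Gapdh, with 286 measured copies, and Rps2, with 69. Hmgb1 had 4 members among 72 copies and Ptma 4 among 17. The expressed copies of Rps2 had a sum of 25.0 TPM in replicate 2 and of 18.6 TPM in replicate 1, against 2119 and 1969 TPM of Rps2 itself. Those of Hmgb1 summed to 163 and 174 TPM, against 240.1 and 216 TPM of Hmgb1.

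The parents were highly expressed genes, which the choice partly fixes, since among near-tied matches the gene with the highest TPM was taken. Members also met the rule with counts that were assigned between similar genes, so it is not independent of the parent's level. Parents of the other processed pseudogenes were not compared. All 193 passed 1 TPM in both libraries and 121 passed 100 TPM in both, with a median of 220 TPM, against a median of 9.14 TPM over 10858 protein-coding genes that met the same TPM limit. The lowest parent was Cdh11, a cadherin, at a mean of 1.58 TPM. Members were far below their parents, by a median of -5.11 on the log2 scale in replicate 2 and -5.40 in replicate 1, or 2.68% of the parent's TPM over both. At least 10% of the parent's TPM was reached in both libraries by 50 members. Members and parents together held 6.56% of their TPM on the pseudogenes in replicate 2 and 5.96% in replicate 1.

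Of the 237 members, 4 exceeded their parent in both libraries. Ndufb4c had 133 and 134 TPM, against 33.2 and 30.6 TPM of Ndufb4. Gm10557, on chromosome 18, had 5.24 and 5.46 TPM, against 1.19 and 1.97 TPM of Cdh11. It shared 93.8% of its 101-base words with another gene but none with Cdh11, so this parent is uncertain. Gm7536 has been given above, and Gm7488 had 37.2 and 30.6 TPM, against 24.1 and 21.3 TPM of Nudt21, a subunit of the cleavage factor that prepares transcripts for polyadenylation. Next came Gm6741, with 17.2 and 14.3 TPM, against 16.5 and 14.4 TPM of Nanp, a phosphatase of sialic acid synthesis, so the order turned between the libraries. Gm7536, Ndufb4c, Gm7488 and Gm6741 were identical to their parent over the aligned stretch, and all of their 101-base words occurred in another gene's transcripts.

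The members resembled their parents more than the other processed pseudogenes did. Median identity to the parent transcript was 99.51% for the members, with quartiles of 98.87% and 99.89%, and 91.71% for 3938 others with a matched parent, with quartiles of 87.09% and 96.22%. Identity reached 98% in 204 members, or 86.1%, and in 554 others, or 14.1%. It was 100% in 55 members and in 42 others, and under 95% in 9 members and in 2660 others. The level of a copy was itself assigned with its sequence, so that identity is not independent of the rule, and no test was made.

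The same held for stretches of read length. Every 101-base word of 61 members, or 25.5%, also occurred in a transcript of another gene, and this was so for 158 of 5094 other processed pseudogenes, or 3.10%. No word was shared in 11 members, or 4.6%, and in 3418 others, or 67.1%. The median share was 72.8% in the members and 0 in the others. The 61 members without a word of their own stood at a median of 21.4 TPM in replicate 2, against 16 TPM in replicate 1, and the 11 members with no shared word at 1.68 and 2.17 TPM.

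**Figure D3:**
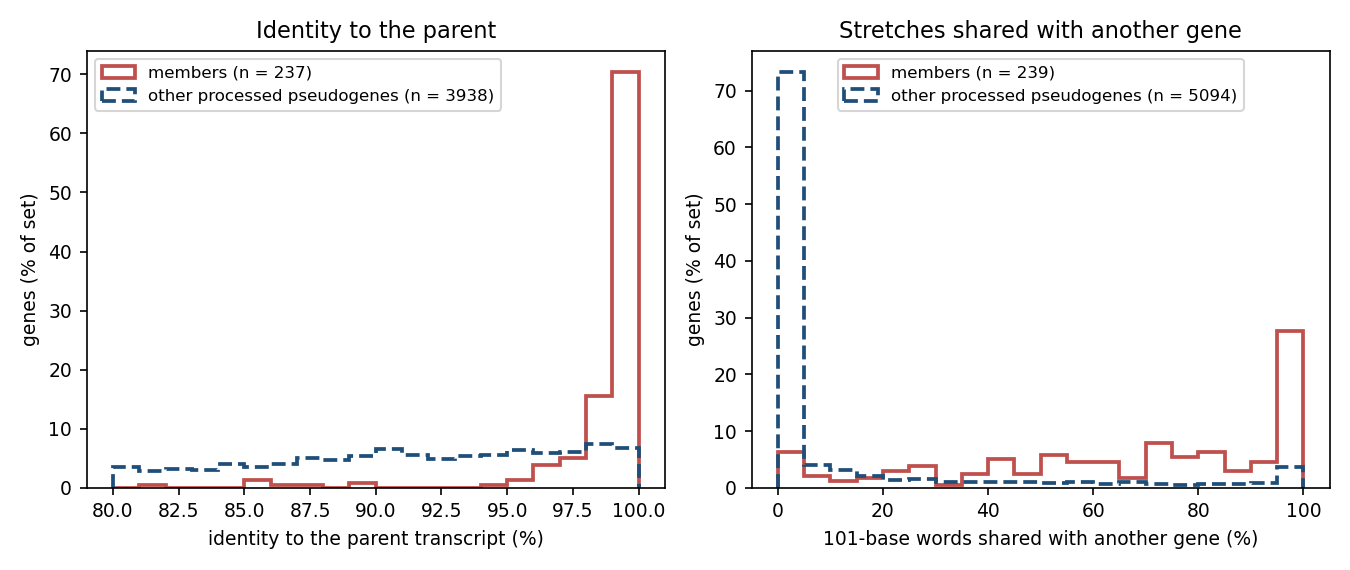
Share of genes (y axis, %) by identity to the parent transcript (left, %) and by the share of 101-base words found in another gene (right, %), with solid red lines for members and dashed blue lines for the other processed pseudogenes. Members pile up next to full identity, at a median of 99.51%, while the others spread from 80% upwards with a median of 91.71%.

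Many members kept the parent's reading frame in their sequence. At least 95% of the parent's coding part was aligned in 204 members, and 158 of them, or 77.5%, had neither a gap nor a stop codon in that frame. Among 2374 other processed pseudogenes aligned to the same extent, 518 did, or 21.8%. The 158 members had a median identity of 99.75% and a median level of 10 TPM in replicate 2, against 7.60 TPM in replicate 1. The other 46 members had a median identity of 98.28% and a median level of 3.71 and 2.69 TPM, 38 of them with a gap and 13 with a stop codon. Gm14276 was one of these, with 6 gaps and 3 stop codons in the frame of Rps2. Whether any of the open frames is translated was not measured.

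In structure, 236 of the 239 members had a single exon, and their lengths ran from 171 to 3339 bases with a median of 531. Members lay on 20 chromosomes. Chromosome 2 held the largest number, 25, or 10.5%, against 10.7% of the other processed pseudogenes. On chromosome X there were 12, or 5.02%, against 911 of the 5110 other processed pseudogenes, or 17.8%. Outside other genes lay 155 members, or 64.9%, against 69.1% of the others. A gene on the other strand was overlapped by 45 members, or 18.8%, against 18.9%. Inside an intron of a gene on the same strand lay 34 members, or 14.2%, against 11.1%, among them Ndufb4c in Mroh5 and Snrpert in Rnf24. A same-strand exon was overlapped by 5 members, or 2.09%, against 0.900%, and for these reads of the host gene could be counted on the pseudogene.

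The authors' posterior SD of the count gives the spread, within their own estimate, of assigning reads between similar genes. It does not show that the assignment itself was right. As a share of the expected count, its median over members was 2.61% in replicate 2 and 3.82% in replicate 1, and it was 0 for the median protein-coding gene at 1 TPM or more in each library. It reached 10% in both libraries for 30 members, or 12.6%, and for 18 protein-coding genes, or 0.166%. The posterior SD was larger than the square root of the count, the size of counting error, in 86 members in replicate 2 and 88 in replicate 1, against 83 and 85 of the 10858 protein-coding genes. It was 0 in 12 members in replicate 2 and in 14 in replicate 1, against 9570 and 9580 of the protein-coding genes. Copies of glycolysis genes had the largest median among the parent families of at least 5 members, 12.1% in replicate 2 and 16.5% in replicate 1, and copies of RNA processing genes the smallest, 1.64% and 2.22%.

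Copies of Gapdh stood out. Gm12671 had 1854 counts with a posterior SD of 3251 in replicate 2 and 5441 counts with a posterior SD of 2252 in replicate 1, or 175% and 41.4%. Its 13.2 TPM in replicate 2 lay below its own credibility interval, from 14.1 to 95.9 TPM, and its 55.9 TPM in replicate 1 lay inside one from 23.3 to 99.0 TPM. Gm7336 had 29.2 TPM with an interval from 6.31 to 56.0 TPM in replicate 2 and 34.9 TPM with one from 3.50 to 73.5 TPM in replicate 1. Gm10359 had 92.1 TPM with an interval from 28.2 to 98.6 TPM in replicate 2 and 40.1 TPM with one from 17.0 to 76.3 TPM in replicate 1. The intervals of these copies overlapped each other in both libraries, so that no order among them could be read. Together with Gm14760 and Gm12070 they came to 145 TPM in replicate 2, against 137 TPM in replicate 1.

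Other members with large errors were Gm4294, a copy of Rpl15, with relative posterior SDs of 38.9% in replicate 2 and 55.6% in replicate 1, and Gm14648, a copy of Rpl21, with 35.6% and 31.8%. Small ones belonged to Snrpert, Gm14276 and Gm16574, a copy of Rangap1, with a posterior SD of 0 in both libraries, and to Gm12696, with 0.104% and 0.137%, and Gm6548, a copy of the elongation factor gene Eef1a1, with 0.140% and 0.152%. Gm14276, Gm16574 and Gm6548 shared no 101-base word with another gene, while Snrpert shared 43.0% of its words. Over the 239 members, the relative posterior SD and the share of shared words had a Spearman rho of 0.48 in replicate 2 and 0.47 in replicate 1, across genes that share reads and libraries and are not independent. The 61 members with every word shared had medians of 4.74% and 7.02%, against 0 in both libraries for the 11 with none. Rpl39-ps was the highest of these 11, with 5.32% in replicate 2 and 6.62% in replicate 1. Its words came from the M21 model at chr15:102635038-102635188, which is shorter than its deposited length of 355 bases. They therefore do not cover all of the sequence behind its counts. Members with every word shared ranged widely, as Gm7536 had 0.423% and 0.584%, Gm10443 had 4.47% and 7.02%, and Gm10359 had 26.3% and 48.9%.

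**Figure D4:**
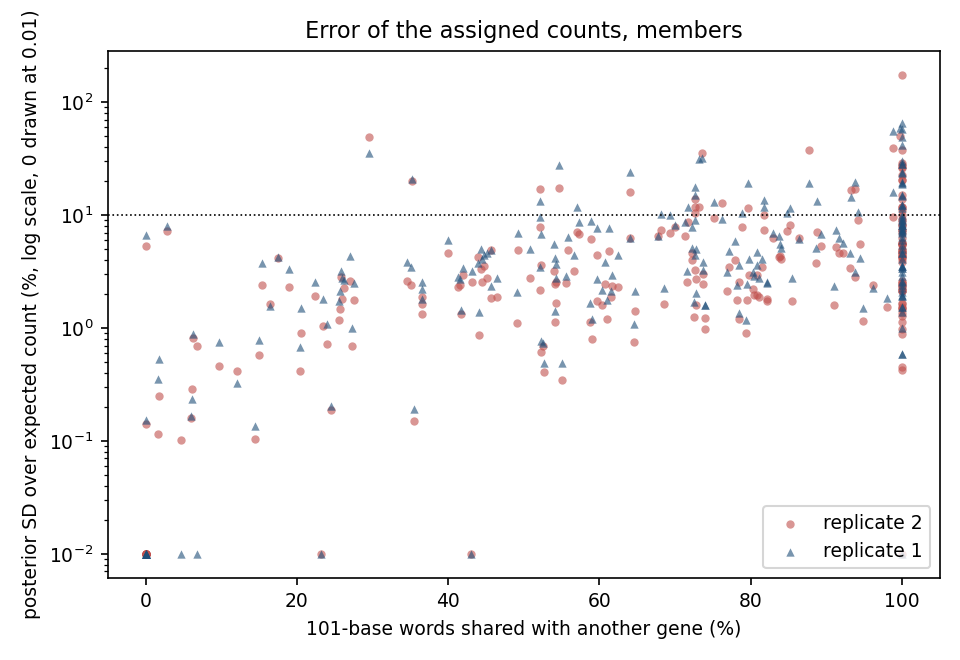
Posterior SD as a percentage of the expected count (y axis, log scale, with 0 drawn at 0.01) against the share of 101-base words found in another gene (x axis, %) for the 239 members, red circles for replicate 2 and blue triangles for replicate 1. The dotted line marks 10%, which 30 members reached in both libraries.

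The threshold was less firm for low and short members. The lower bound of the credibility interval was under 1 TPM for 20 members in replicate 2 and for 40 in replicate 1. Just inside, by the lower library, were Gm14176 with 3.10 and 1.00 TPM, Gm15538 with 1.08 and 1.00, Gm6682 with 1.01 and 1.22, Tma7-ps with 1.01 and 3.79, and Gm7887 with 1.26 and 1.02 TPM in replicates 2 and 1. Just outside were Rpl19-ps1 with 1.53 and 0.98, Rpsa-ps4 with 1.89 and 0.960, Gm13245 with 0.950 and 1.8, Gm5620 with 1.52 and 0.950, and Gm5931 with 0.930 and 2.82 TPM. The TPM limit was met by 52 more processed pseudogenes if replicate 1 is set aside, and by 9 more if replicate 2 is. Fewer than 10 counts in at least 1 library stood behind 6 members. The effective length (the number of positions at which a fragment can start) was under 50 bases in replicate 2 for 13 members. Tma7-ps, with one of 5.53 bases in replicate 2, passed with 1 count there and 3 in replicate 1. Gm14303, a copy of Rps29, had 48.5 and 10.6 TPM from 20.9 and 3.75 counts.

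The libraries were also compared gene by gene, in a test that compares these 2 libraries and not conditions, and whose p-values cover counting error only. The members were chosen on their levels in the same libraries, so their counts of calls are a description and nothing is read from their distance to the background. An exact conditional binomial test with Benjamini-Hochberg adjustment called 122 of 237 members tested, or 51.5%, beside 39.9% of all 18572 genes tested. Higher in replicate 2 were 85 members, or 35.9%, beside 19.7% of all genes, and higher in replicate 1 were 37, or 15.6%, beside 20.1%. The median log2 ratio of replicate 2 over replicate 1 was 0.14 for the members and 0.00 for all genes. For genes with a mean of at least 50 counts, the median size of the log2 ratio was 0.32 over 208 members and 0.11 over all. The parents leaned the other way, with 42 of 193 higher in replicate 2 and 102 higher in replicate 1, as did the 82 ribosomal protein genes, with 10 and 64. A negative binomial exact test, whose spread is estimated over all genes from these same libraries, called 3 members, Gm13092, Gm12671 and Gm9442, beside 2.54% of all genes. The other called members were not beyond that spread. The part of shared sequence in these differences was not tested, nor was that of the higher muscle markers in replicate 1.

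Large log2 ratios towards replicate 2, in called members averaging 50 counts or more, included that of Rps13-ps1, with 29.0 TPM in replicate 2, against 12.3 TPM in replicate 1 (log2 ratio 1.07, error 0.09 with the posterior SD included). Rpl39-ps had 39.1 and 17.5 TPM (0.98, error 0.16). For Gm10359 the log2 ratio of 1.05 had an error of 0.80. Towards replicate 1, Gm12671 had a log2 ratio of -2.23 with an error of 2.60, so that neither of these Gapdh copies differed beyond its error of assignment.

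Gm13092, a copy of the Sm protein gene Snrpf, had 21.8 TPM in replicate 2, against 53.4 TPM in replicate 1 (-1.56, error 0.27). Llph-ps2 had 28.4 and 50.3 TPM (-0.99, error 0.12). Gm10335, a copy of Rpl23a, had 35.4 and 58.9 TPM (-0.89, error 0.21), and Gm21596, a copy of Hmgb1, had 2.43 and 3.82 TPM (-0.80, error 0.16).

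An older table of the same libraries on the mm9 build gives ENSEMBL genes in RPKM, reads per kilobase scaled by mapped reads, in 2 columns that do not say which library they hold. It lists 203 members by gene identifier. Of these, 193, or 95.1%, had at least 1 RPKM in both columns, beside 26.1% of the 33068 genes in both tables and 374 of 3606 other processed pseudogenes, or 10.4%. No listed member was at 0 in both columns, and 1514 of the others were. Because the members were chosen on their level in the same libraries, these contrasts are partly fixed by the rule and are a description. The 36 members not listed include Rps23-ps1, with 74.3 and 84.9 TPM in replicates 2 and 1, Gm10359, Gm8355, Gm12671, and Rps10-ps2, with 24.5 and 33.9 TPM.

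Most members had larger values in the mm9 table than in the mm10 tables, and nearly all protein-coding genes had smaller ones. The median member had 17.3 and 23.2 RPKM in the mm9 columns, against 7.11 and 6.12 FPKM, the same for fragments, in mm10 replicates 2 and 1. The log2 ratio of mm9 RPKM over mm10 FPKM, with 0.1 added to both, had a median of 1.45 over members, with quartiles of -0.38 and 2.61. It had a median of -2.04 over 10763 protein-coding genes at 1 TPM or more in each library, with quartiles of -2.53 and -1.64. Above that median stood 184 of the 203 members. Higher in mm9 were 143 members, or 70.4%, and 37 protein-coding genes, or 0.344%. The scales differ, so a shift shared by all genes has no meaning. The distance between the medians of members and protein-coding genes was 3.49 on the log2 scale. Gene length may also enter this distance, since mm10 FPKM is per effective length, far below the full length in short genes. A small effective length raises mm10 FPKM and so lowers the ratio of mm9 over mm10. Gm10443, for example, had an effective length of 9.19 of its 210 bases in replicate 2. The part of length was not tested. Of the summed values of genes in both tables, members held 9.02% and 7.26% in the mm9 columns, against 0.659% and 0.571% in mm10 replicates 2 and 1.

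**Figure D5:**
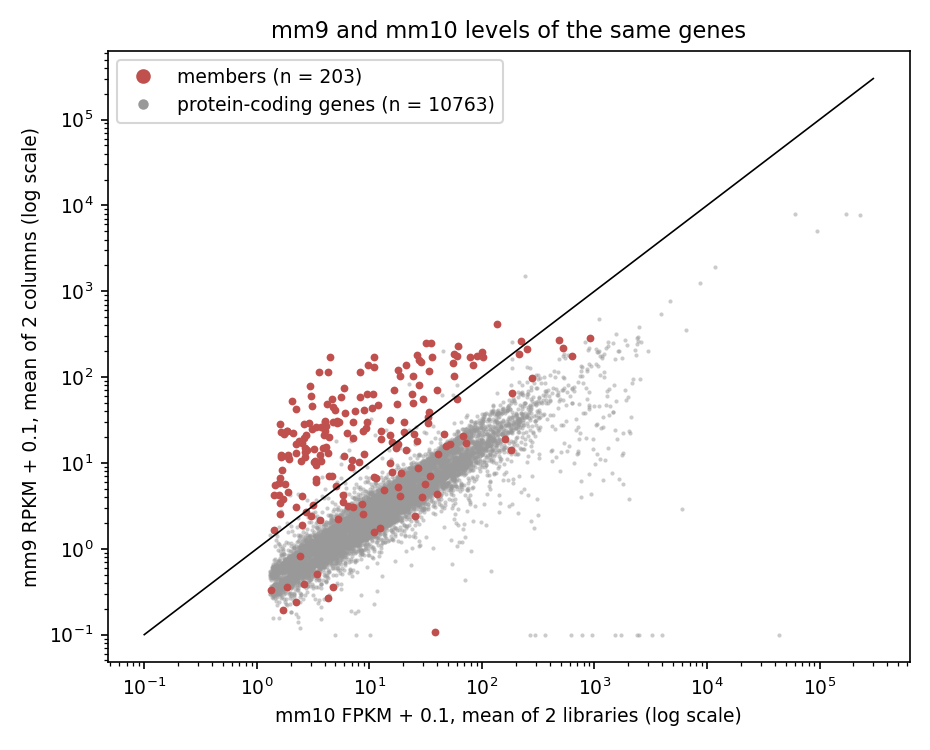
mm9 RPKM (y axis, mean of 2 columns) against mm10 FPKM (x axis, mean of 2 libraries), both with 0.1 added and on log scales, for 203 members (red) and 10763 protein-coding genes (grey), with a black line of equality. Most members lie above the line and the bulk of protein-coding genes below it.

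The parents stood on the other side of the protein-coding genes. Their median log2 ratio of mm9 over mm10 was -3.90 over 191 genes, with quartiles of -5.20 and -2.82. It was -2.03 over 10572 protein-coding genes that are no parent. Above the median of all protein-coding genes at 1 TPM or more in each library stood 22 parents. The parents and the other genes were not matched for length, and the part of length was not tested. Among 199 members listed in mm9 with a listed parent, 112, or 56.3%, had a higher level than the parent in both mm9 columns, and 4 had so in both mm10 libraries. The 199 members summed to 8330.3 and 11276 RPKM in the mm9 columns, against 5649.8 and 7152 RPKM of their parents. In mm10 the same members summed to 7190.3 and 6719 FPKM in replicates 2 and 1, against 98796 and 103458 FPKM of the parents. Rank was partly shared, with a Spearman rho between mm9 RPKM and mm10 FPKM of 0.51 across 203 members and 0.93 across the protein-coding genes. The parent's TPM had a Spearman rho of 0.62 with the member's mm9 RPKM and of 0.28 with its mm10 FPKM, across 202 members that share libraries. Which reads each table placed on copies is not given in the sources used here, and its part in these differences was not tested.

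The largest shifts towards mm9 were those of low mm10 members with a high parent. Gm4294 had 145 and 196 RPKM in mm9, against 5.66 and 3.15 FPKM in mm10, a log2 ratio of 5.24, while its parent Rpl15 had 42.3 and 55.8 RPKM, against 719 and 746 FPKM. Its sequence differs from Rpl15 at 1 of 610 aligned coding bases, the last base of the window at chr12:12023564-12023653 on the plus strand.
Rpl15: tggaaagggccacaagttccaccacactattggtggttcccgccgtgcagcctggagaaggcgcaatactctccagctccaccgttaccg
Gm4294: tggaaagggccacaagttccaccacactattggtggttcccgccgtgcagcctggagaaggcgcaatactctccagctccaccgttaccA

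Gm11847, a copy of Hnrnpa3, had 97.2 and 131 RPKM in mm9, against 3.62 and 3.31 FPKM in mm10 (log2 ratio 5.00). Gm14150, a copy of the tubulin gene Tuba1b, had 68.3 and 89.5 RPKM, against 3.56 and 2.19 FPKM (4.73). Rps27a-ps2 had 97.1 and 129 RPKM, against 5.33 and 3.10 FPKM (4.71), and Gm14648 had 39.9 and 65.4 RPKM, against 1.6 and 2.31 FPKM (4.68). By family, this log2 ratio had a median of 2.02 for large subunit copies, of 2.07 for small subunit copies, of 0.04 for RNA processing copies and of 2.20 for translation factor copies.

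Members with lower values in mm9 included several high ones. Gm7336, the Gapdh copy, had 0 and 0.0139 RPKM in mm9, against 33.9 and 43.0 FPKM in mm10 (-8.49), whereas another Gapdh copy, Gm12070, had 21 and 35.2 RPKM, against 1.25 and 1.76 FPKM. Gapdh itself had 14.5 and 11.5 RPKM, against 1917 and 1654 FPKM. Gm12328, a copy of the polyubiquitin gene Ubb, had 0.141 and 0.188 RPKM, against 5.47 and 2.92 FPKM (-4.02), from 5 and 2 counts in mm10. Marcksl1-ps4 had 0.222 and 0.302 RPKM, against 4.74 and 4.65 FPKM (-3.73), and overlaps an exon of Akr1c19 on the same strand. Gm8186 had 10.4 and 17.6 RPKM, against 174 and 185 FPKM (-3.67), and Gm16199, a copy of the ubiquitin ligase gene Cop1, had 1.93 and 2.69 RPKM, against 25.1 and 26.0 FPKM (-3.41). The member that exceeded its parent most in mm10, Ndufb4c, had 15.7 and 21.8 RPKM in mm9, against 2.42 and 2.43 RPKM of Ndufb4, so it stood above its parent in both tables. Gm7536, with 255 and 313 RPKM, against 15.5 and 18.4 RPKM of Rpl27a, did so too.

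Assembled stretches of mapped reads, called contigs by the authors, covered nearly all listed members on the same strand. A contig overlapped 200 of 203 members and covered at least 50% of 199, against 2071 and 1473 of 3606 other processed pseudogenes. Since the members were chosen on their level in the same libraries, contrasts with the others in contigs partly follow from the choice. The contig's level was a median of 49.8 in the authors' unit over members and 0.0620 over the others. It was not always high where RPKM was high, since Gm4294 had a contig level of 0.482, Rpl15-ps3 of 0.982 beside 157 and 215 RPKM, and Rpl27-ps3 of 4.86 beside 155 and 201 RPKM. A contig level under 1 together with at least 1 RPKM in both mm9 columns was found in 8 members. Across 203 members the contig level had a Spearman rho of 0.55 with mm9 RPKM and 0.42 with mm10 FPKM.

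Although 236 members have no annotated intron, the mm9 junction list placed spliced reads inside many of them. At least 1 junction read lay within 190 of the 203 listed members on the same strand, and at least 10 reads within 131, against 498 and 159 of 3606 other processed pseudogenes. This contrast, too, partly follows from the choice of members by level. With junctions of an irreproducibility value of at most 0.1 alone, the 190 members became 85. A single junction with at least 10 reads was found in 71 members. The median member had 16 junction reads in all, from 1 file for both libraries. Rpl17-ps10 had 1806 of its 1937 reads on 1 junction. Gm11847 held 387 different junctions with 2723 reads, the strongest with 983. Gm13461, a copy of the nuclear transport gene Ran, had 428 of 475 reads on 1 junction, Gm12715 had 350 of 411, and Gm6565 had 337 of 342. Such spans lie inside a copy of an already spliced messenger RNA, and whether they mark introns of the pseudogenes was not tested.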

How the data were processed

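The 2 libraries form a single group, per the labels. Expected count values were estimated by the authors per gene on mm10 with the GENCODE M4 annotation, per the notes deposited with the samples. The programs for alignment and quantification are not given here. The TPM and FPKM values were made by the authors per effective length and deposited beside them. The authors also deposited a posterior mean TPM, the bounds of a TPM interval, and score values, among them a posterior SD for each count and, in the mm9 lists, a value read here as one of irreproducibility. The mm9 RPKM values were deposited for ENSEMBL genes, each listed more than once with the same values, in 74620 lines for 37310 genes. Contig signal was deposited in an unstated unit, and junction counts in 1 list for both libraries.

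Of 43346 mouse genes, 42462 were matched by identifier to GENCODE M21, which holds 9941 processed pseudogenes, 5349 of them measured. The members and lists were chosen with earlier results of these data known. Parents are multi-exon protein-coding M21 transcripts found with blastn 2.17.0 over at least 50% of the pseudogene at 80% identity or more; of matches within 98% of the best score the gene with the highest TPM was taken. The member's M21 sequence had the deposited length in 175 of 239 members. Families follow parent symbols, with Tmem genes left among the others although the list of cytoskeletal genes names them.

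Replicates 2 and 1 were compared with an exact conditional binomial test, two-sided, on expected counts rounded to whole numbers, with TMM factors of edgeR 4.0.16, at least 10 counts in total and Benjamini-Hochberg adjustment at 0.05 over all genes; with 1 group of 2 libraries no test between groups exists. The error of a ratio adds the posterior SD to counting error. Limits from 0 counts cover counting error only. Named members are the 20 highest, the 2 highest and the lowest of each family with at least 5 members, the 5 largest library ratios each way among called members with a mean of at least 50 counts, the 5 highest and lowest relative posterior SDs at that minimum, the 5 largest mm9 over mm10 ratios each way, the 5 highest not listed in mm9, the 5 highest relative to the parent, 5 on each side of the threshold, of members with at least 10 reads on a junction the 5 with most, and their parents. Those 5, Gm14303, Gm14760, Gm9442, Gm17084 and Gm37568 and the members of the smallest families were chosen after their values were seen. The library ratios of 2 members that this rule names are not reported here. Alternatives used DESeq2 1.42.0 size factors, library totals, other filters and thresholds, and each replicate left out. Other tools were R 4.3.3, Python 3.11.15 and pandas 2.3.3.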

Additional observations from a re-analysis of the deposited data

How the results depend on the processing

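The number of members was 239, and 113 at 5 TPM in both libraries, 386 with the posterior mean TPM and between 248 and 291 with 1 replicate left out. The 122 members called between the libraries became 3 under the negative binomial exact test, none of them higher in replicate 2, and between 117 and 131 under other scalings and filters. The 30 members with a relative posterior SD of 10% were 72 at 5%, 13 at 20% and between 32 and 45 with 1 replicate left out. The median log2 ratio of mm9 over mm10, 1.45, became 1.00 as a mean. The 81 members with a ribosomal protein parent became 38 by gene symbols alone, since only 69 members carry a parent's name. The median identity of 99.51% was 99.64% with the highest identity and 98.80% as a mean. The median log2 level relative to the parent, -5.22 over both libraries, was -6.89 in expected counts, and between -5.40 and -5.11 with 1 replicate left out. The 190 members with a junction inside became 85 at an irreproducibility value of at most 0.1. The cause of these changes was not tested. The counts at mm9 RPKM of 1 and with a contig stayed within 1.5 times under the alternatives run for them, at 193 with 1 replicate left out. No paired analysis was possible because there is 1 group. Added after seeing the data were the error with the posterior SD, which left 101 calls, and a minimum of 10 counts in both libraries, which left 233 members. Depth limits the 71 members under 100 counts in a library.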

Other observations

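Some processed pseudogenes outside the members were high in the mm9 table. Rps12l1, identical to Rps12 over the aligned stretch, had 177 and 272 RPKM in mm9, against 0.50 TPM in mm10 replicate 2 and 0 in replicate 1. Gm9701, a copy of Rps23 at 96.97% identity, had 143 and 237 RPKM and was listed at 0 in both mm10 libraries. Rpl7a-ps11 had 121 and 160 RPKM, against 12.9 TPM in mm10 replicate 2 and 0 in replicate 1. These genes were chosen after their values were seen, as the 3 highest in mm9 among the processed pseudogenes that missed the rule.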
